A study of Mus musculus with 6 samples.

Results

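Immediate early genes are switched on within minutes of a stimulus, without new protein synthesis, and many of them encode transcription factors. The 10 genes described here are Jun, Junb, Jund, Fos, Fosb, Fosl2, Atf3, Egr1, Nr4a1 and Ier2, out of 52550 mouse genes in the count files. They were taken as the rows of these symbols in the mouse annotation of the GRCm38 build, and all 10 were found. The set was selected on family membership and with earlier results of these data known, in which Jund had been seen to be higher in GR-cKO hearts. The genotype values of Jund are therefore a description and carry no test. Of the 10 genes, 9 had enough reads for the fit across 14860 genes, and Fosb did not.

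Hearts were taken at postnatal day 7, and each of 2 groups has 3 libraries. The GR-cKO group lacks the glucocorticoid receptor (gene Nr3c1) in cardiomyocytes by a conditional knockout, and the other group, labelled ctrl, is called control here. The sources used here do not state the Cre driver, the deleted exon, the strain or the genotype of the controls. The labels call the libraries biological replicates. Each was made from RNA of whole heart tissue, which also holds endothelial cells, fibroblasts and other cells in which the receptor was not targeted, and was sequenced from the 3′ ends of its messenger RNAs. The question of the series is what the heart expresses differently, shortly after birth, when its muscle cells lack the receptor.

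AP-1 is a dimer of basic leucine zipper proteins. Members of the Jun family pair with each other or with members of the Fos family or some ATF proteins, while Fos proteins need a Jun partner to bind DNA. The transcription of Fos, Egr1 and related genes is driven by serum response factor with its cofactors and by CREB, and that of Jun and Atf3 also by stress kinases. The glucocorticoid receptor is known from cultured cells to restrain AP-1 by direct contact, and it induces the phosphatase Dusp1, which switches off the kinases upstream. In the heart these genes answer to stretch, adrenergic stimulation and injury, and they also answer quickly to tissue handling.

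Promoter windows of the 10 genes were read from RefSeq tables of the GRCm38.p6 build, as windows of 300 bases around a start site, and 8 genes had a window. Egr1 and Ier2 had none, so the counts of windows do not cover them. The 5 windows that hold the letters TGACG or their reverse complement CGTCA, the core of the cyclic AMP response element to which CREB and ATF proteins bind, are shown, so that their letters can be set beside the differing levels of their genes. Capitals mark this core and, in Fos and Junb, the letters TATAAA of the TATA box. Each sequence reads 5′ to 3′ on the strand of its gene. The windows lie at chr12:85473640-85473939 for Fos (plus strand), chr7:19309996-19310295 for Fosb (minus), chr8:84978699-84978998 for Junb (minus), chr1:191183284-191183583 for Atf3 (minus) and chr15:101266596-101266895 for Nr4a1 (plus). The windows of Atf3 and Nr4a1 belong to start sites 34706 and 12577 bases downstream of the first GENCODE start of their gene.
Fos: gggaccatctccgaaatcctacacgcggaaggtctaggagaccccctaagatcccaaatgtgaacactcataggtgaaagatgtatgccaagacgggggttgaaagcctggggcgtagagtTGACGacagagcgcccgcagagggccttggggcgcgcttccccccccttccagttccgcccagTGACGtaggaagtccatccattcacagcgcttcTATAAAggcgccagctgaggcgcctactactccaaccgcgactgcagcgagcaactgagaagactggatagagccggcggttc
Fosb: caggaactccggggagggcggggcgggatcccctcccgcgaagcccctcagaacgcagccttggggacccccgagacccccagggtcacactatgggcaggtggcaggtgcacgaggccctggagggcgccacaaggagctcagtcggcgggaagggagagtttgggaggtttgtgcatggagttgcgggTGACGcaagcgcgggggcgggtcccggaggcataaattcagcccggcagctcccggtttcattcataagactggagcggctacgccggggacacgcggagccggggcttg
Junb: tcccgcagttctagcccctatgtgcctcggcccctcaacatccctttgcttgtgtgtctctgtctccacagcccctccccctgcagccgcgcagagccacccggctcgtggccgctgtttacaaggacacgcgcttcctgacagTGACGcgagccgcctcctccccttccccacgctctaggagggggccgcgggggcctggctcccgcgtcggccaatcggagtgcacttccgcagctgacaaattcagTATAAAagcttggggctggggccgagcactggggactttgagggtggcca
Atf3: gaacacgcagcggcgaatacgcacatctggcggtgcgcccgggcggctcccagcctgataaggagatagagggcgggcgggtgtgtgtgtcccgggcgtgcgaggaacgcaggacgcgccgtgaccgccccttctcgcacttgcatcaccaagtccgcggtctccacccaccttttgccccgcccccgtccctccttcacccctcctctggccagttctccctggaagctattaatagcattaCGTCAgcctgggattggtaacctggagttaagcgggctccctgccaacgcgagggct
Nr4a1: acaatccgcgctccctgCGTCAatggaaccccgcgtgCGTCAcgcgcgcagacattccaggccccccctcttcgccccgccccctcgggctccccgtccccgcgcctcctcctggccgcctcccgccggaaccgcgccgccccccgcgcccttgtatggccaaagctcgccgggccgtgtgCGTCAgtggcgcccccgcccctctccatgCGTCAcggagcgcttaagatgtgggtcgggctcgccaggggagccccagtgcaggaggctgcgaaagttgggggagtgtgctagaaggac

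The core was present in 5 of the 8 windows, against 20.8% of all 32851 RefSeq windows of the same length. Fos had it from -129 to -125 and from -66 to -62 relative to the start site, and TATAAA from -33 to -28. In Junb TATAAA lies from 1 to 6, after the RefSeq start site of the window, which is 30 bases upstream of the GENCODE start. Nr4a1 had 4 copies, all on the opposite strand, with the copy nearest the start site from -40 to -36. The letters TATAAA were present in 2 of the 8, against 13.6% of all windows. None of the 8 windows held the full element TGACGTCA (1.79% of all windows), the AP-1 element TGACTCA (5.20%), the EGR element GCGTGGGCG (0.612%), the NR4A element AAAGGTCA (1.51%) or the CArG box of serum response factor (1.63%). Both strands were searched, the TGACGTCA element contains the shorter core, and absence from a window of this length says only that the letters are not there. The window of Jund ends before the GENCODE start of the gene and is not shown.

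Library depth ranged from 18135540 to 20988286 reads in GR-cKO hearts and from 19209410 to 22999192 reads in control hearts. Spike-in transcripts took 1.63 to 2.01% of reads. GR-cKO replicate 3 stood apart: Gm42418, a gene model over the ribosomal RNA repeat, took 10.7% of its reads against 5.38 to 7.54% in the other 5 libraries, and 23.02% of all tested genes had their highest level there and 22.04% their lowest. Values below are given with and without this heart where it matters. Nr3c1 had 57.6, 49.2 and 56.2 CPM in GR-cKO hearts and 114.5, 131.4 and 99.75 CPM in control hearts, and it fell by 1.08 on the log2 scale with an SE of 0.125 (edgeR adjusted p = 0.00101). Every GR-cKO library was under every control library, as the labels have it. CPM is the usual depth-scaled count, the reads of a gene relative to those of all tested genes in its library, scaled by the trimmed mean of M-values (TMM). The TMM factor was 0.904 for GR-cKO replicate 3 and 1.006 to 1.056 for the other 5 libraries. A factor below 1 raises the CPM of a library. Because each transcript gives reads from its 3′ end only, CPM follows transcript number and needs no correction for length.

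The Jun family held the most abundant of the 10 genes. Jun, the classical partner of Fos, maps to chr4:95049034-95052222 (minus strand). It had 135.7, 98.3 and 268.9 CPM in GR-cKO replicates 1, 2 and 3, against 134.6, 139.6 and 119.3 CPM in control replicates 1, 2 and 3. Only GR-cKO replicate 3 was above the range of the controls, and GR-cKO replicate 2 was below it. Its fitted log2 fold change was 0.35, with an SE of 0.406 and a 95% interval of -0.70 to 1.41, and it was -0.17 without GR-cKO replicate 3 and 0.62 without GR-cKO replicate 2. With limma voom it was 0.22. The overlapping gene Junos on the opposite strand had 0.161 to 0.838 CPM in GR-cKO and 0.219 to 1.05 CPM in control hearts.

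Jund, a constitutively expressed Jun protein that slows growth in cultured fibroblasts, maps to chr8:70698949-70700616 (plus strand). It had 77.8, 98.98 and 127.6 CPM in GR-cKO hearts, against 63.4, 63.2 and 75.6 CPM in control hearts. The 3 GR-cKO values lay above the 3 control values, by a small margin for GR-cKO replicate 1 over control replicate 3. The mean was 101.4 ± 24.99 CPM in GR-cKO and 67.4 ± 7.06 CPM in control hearts (SD, n = 3 each), or 0.59 higher on the log2 scale (SE 0.151). Leaving out GR-cKO replicate 3 gave 0.39, the smallest value with any library left out, and leaving out GR-cKO replicate 1 gave 0.75, the largest. The gene Gm11175 on the opposite strand had no read.

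Junb, a Jun protein that is quickly induced and also restrains Jun, had the fewest reads of the family. It maps to chr8:84974484-84978718 (minus strand). It had 8.82, 11.03 and 11.3 CPM in GR-cKO hearts, against 6.78, 6.58 and 8.02 CPM in control hearts. The groups did not overlap. The fitted log2 difference of GR-cKO from control was 0.54 (95% interval 0.07 to 1.01, SE 0.224) and 0.48 without GR-cKO replicate 3. Junb overlaps Prdx2 on the opposite strand, which had 625.2 to 821.0 CPM in GR-cKO and 670.0 to 687.3 CPM in control hearts, and the sources used here do not state whether counting used strand, so the count of Junb is uncertain. The part of Prdx2 in it was not tested.

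Within the Jun family, reads were divided unequally and the division differed between hearts. Jun took 61.04, 47.2 and 65.95% of the family's reads in GR-cKO replicates 1, 2 and 3, against 65.7, 66.7 and 58.8% in control replicates 1, 2 and 3. GR-cKO replicate 2, with 4417 reads of the family, was the only heart in which Jund (47.5%, Wilson 95% interval 46.05 to 49.0%) was at least level with Jun (47.2%, 45.7 to 48.7%). Jund averaged 37.9 ± 8.51% in GR-cKO and 32.8 ± 3.87% in control hearts (SD, n = 3 each), given as a description. Junb took 2.77 to 5.30% in GR-cKO and 3.14 to 3.96% in control hearts. These intervals cover counting error only.

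**Figure D1:**
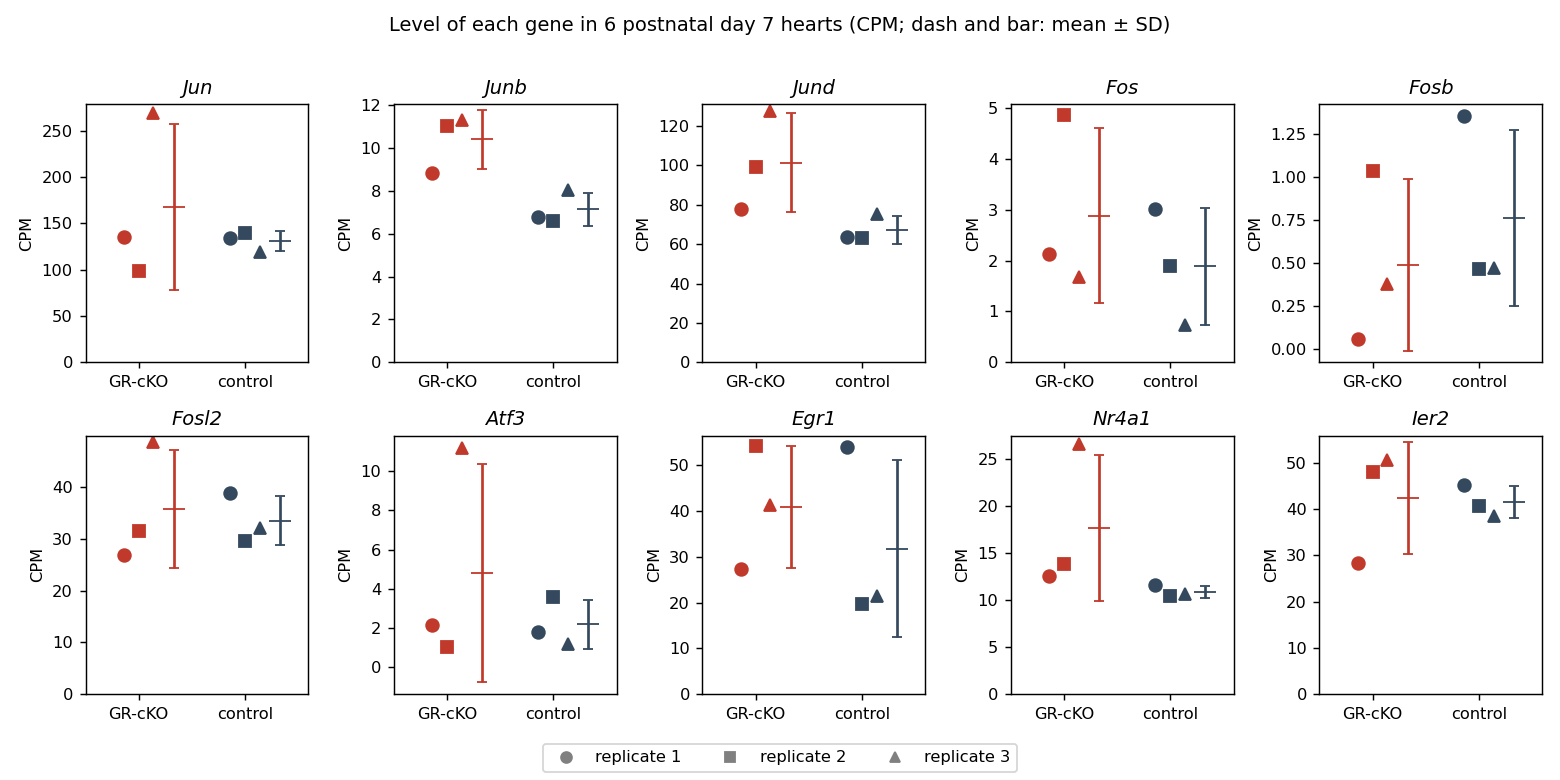
Level of each of the 10 genes in CPM (y axes, each from 0 except where an SD bar passes below it) in GR-cKO (red, left) and control hearts (dark blue, right), with 1 marker shape per replicate number and the mean ± SD beside them (n = 3 each). GR-cKO replicate 3 (triangles) is the highest of the 6 hearts for 7 of the 10 genes, among them Jun at 268.9 CPM and Atf3 at 11.2 CPM.

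The Fos family was carried by Fosl2. Fosl2 encodes Fra-2, a Fos protein without a strong activation domain, and maps to chr5:32135801-32157842 (plus strand). It had 26.97, 31.6 and 48.7 CPM in GR-cKO hearts, against 38.9, 29.7 and 32.04 CPM in control hearts. The groups overlapped, with the lowest and the highest value both in GR-cKO hearts. Its fitted log2 fold change was 0.09, with an SE of 0.189 and a 95% interval of -0.31 to 0.49, and without GR-cKO replicate 3 it was -0.20. Fosl2 took 92.5, 84.3 and 95.97% of the reads of Fos, Fosb, Fosl1 and Fosl2 in GR-cKO replicates 1, 2 and 3, against 89.9, 92.6 and 96.4% in control replicates 1, 2 and 3.

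Fos, the most labile member, was low in every heart. It maps to chr12:85473890-85477273 (plus strand), and its promoter is printed above. It had 38, 103 and 31 reads in GR-cKO hearts, or 2.12, 4.86 and 1.67 CPM, against 69, 37 and 14 reads in control hearts, or 3.02, 1.90 and 0.734 CPM. The groups overlapped, with GR-cKO replicate 2 highest and control replicate 3 lowest, 6.62-fold apart. The fitted log2 difference of GR-cKO from control was 0.61 (95% interval -0.47 to 1.68, SE 0.512), and it was -0.0027 without GR-cKO replicate 2 and 1.13 without control replicate 1.

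Fosb, whose short splice form accumulates with repeated stimulation in the brain, maps to chr7:19302696-19310051 (minus strand). It had 1, 22 and 7 reads in GR-cKO hearts and 31, 9 and 9 reads in control hearts, too few for a test. GR-cKO replicate 2 and control replicate 1 were the highest of their groups for both Fos and Fosb. Fosl1, the remaining Fos family gene, had no read in any library, which allows up to 0.131 to 0.168 CPM (3 reads per library).

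Among the tested members Atf3 differed most between hearts. It encodes a stress-induced ATF protein that pairs with Jun proteins, and maps to chr1:191170296-191218039 (minus strand). It had 39, 22 and 208 reads in GR-cKO hearts, or 2.18, 1.04 and 11.2 CPM, against 41, 70 and 23 reads in control hearts, or 1.79, 3.60 and 1.21 CPM. The highest and the lowest heart were both GR-cKO and were 10.8-fold apart. The log2 fold change of 1.12 (SE 0.934, 95% interval -1.15 to 3.40) turned to -0.46 without GR-cKO replicate 3. With all 6 libraries kept, limma voom gave 0.51.

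Egr1 and Nr4a1 are immediate early transcription factors outside AP-1, Egr1 a zinc finger protein and Nr4a1 an orphan nuclear receptor. Egr1 had 27.3, 54.2 and 41.3 CPM in GR-cKO hearts, against 54.1, 19.8 and 21.5 CPM in control hearts. GR-cKO replicate 2 and control replicate 1 were nearly level at the top, the same hearts that led for Fos and Fosb. Its fitted log2 fold change was 0.36, with an SE of 0.520 and a 95% interval of -1.005 to 1.73. It was 0.10 without GR-cKO replicate 2, 0.11 without control replicate 2, 0.15 without control replicate 3, 0.59 without GR-cKO replicate 1 and 0.99 without control replicate 1. Nr4a1, at chr15:101254269-101274795 on the plus strand, had 12.6, 13.8 and 26.6 CPM in GR-cKO hearts, against 11.6, 10.4 and 10.6 CPM in control hearts. The groups did not overlap, and GR-cKO replicate 3 stood far above the other GR-cKO hearts, which were close to the controls. The fitted log2 difference of GR-cKO from control was 0.70 (95% interval 0.18 to 1.22, SE 0.245) and 0.28 without GR-cKO replicate 3.

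Ier2, a short-lived nuclear protein of the early response, maps to chr8:84661331-84662852 (minus strand). It had 28.4, 48.1 and 50.7 CPM in GR-cKO hearts, against 45.3, 40.8 and 38.5 CPM in control hearts. The groups overlapped, with GR-cKO replicate 1 the lowest of the 6. Its fitted log2 fold change was 0.03, with an SE of 0.177 and a 95% interval of -0.34 to 0.40.

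None of the 8 tested members besides Jund passed the edgeR quasi-likelihood test across all genes, with adjusted p-values of 0.998 to 0.999. That test called 0% of genes higher and 0.00673% lower, which was Nr3c1 alone. DESeq2 called 1 gene higher and 3 lower and limma voom 0 higher and 1 lower, none of them among these 8. At an unadjusted p under 0.05 edgeR had 2.07% of all tested genes higher and 2.13% lower. All 9 log2 fold changes were positive, with a median of 0.54, where 51.3% of all tested genes were positive with a median of 0.01. For Junb, Jund and Nr4a1 all 3 GR-cKO libraries lay above all 3 control libraries, as for 4.70% of all tested genes, and for none of the 9 did they lie below, as for 5.27%. The members were chosen with this contrast known, so these counts describe the set and nothing is read from them. Without GR-cKO replicate 3 the positive fold changes numbered 5 of 9, with a median of 0.28, and Jun, Fosl2, Atf3 and Ier2 were negative.

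**Figure D2:**
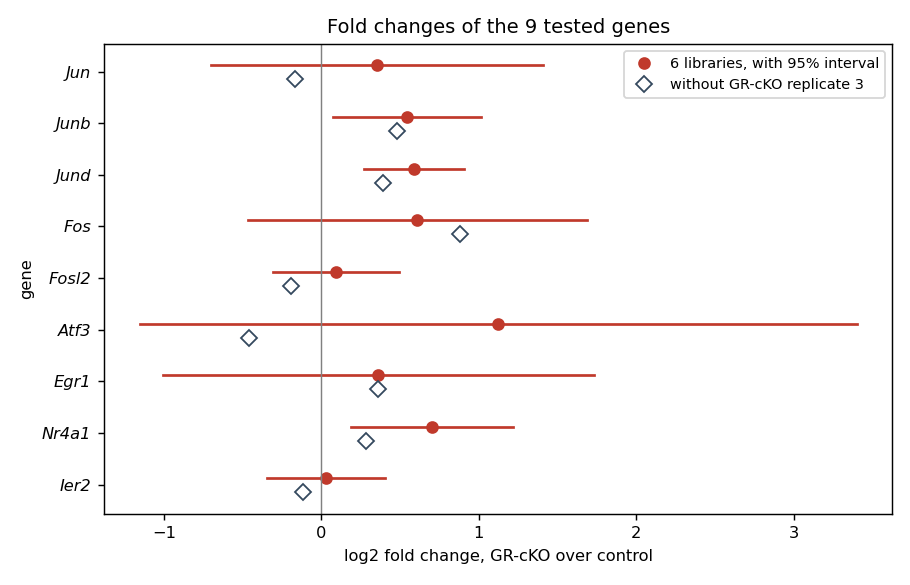
Log2 fold change (x axis, GR-cKO over control) of the 9 tested genes (y axis), as red points with 95% intervals from all 6 libraries and as open diamonds without GR-cKO replicate 3. The diamonds of Jun, Fosl2, Atf3 and Ier2 lie below 0, and those of Junb, Jund, Fos, Egr1 and Nr4a1 lie above it.

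The spread between hearts of 1 group differed widely among the members. The biological coefficient of variation is edgeR's estimate of the relative spread between hearts after counting error, drawn towards the trend of all genes at the same abundance. It was 0.738 for Atf3 against a trend of 0.298, above 99.7% of tested genes. Egr1 had 0.431 against a trend of 0.135, and Jun had 0.341 against 0.130, and both spread more than the trend. Fos had 0.422 against 0.352, a trend that is itself high at such low counts. Jund had 0.141 against 0.123, Ier2 0.158 against 0.132, Fosl2 0.168 against 0.137 and Nr4a1 0.211 against 0.177. Junb, at 0.188, was under its trend of 0.208.

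**Figure D3:**
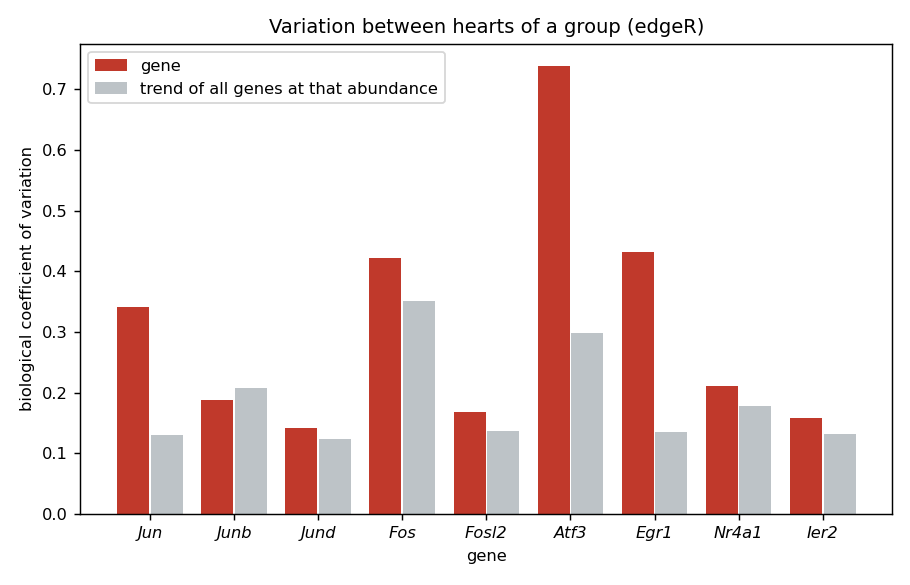
Biological coefficient of variation (y axis, relative spread between hearts of a group) of the 9 tested genes (x axis, red) beside the trend of all tested genes at the same abundance (grey). Atf3, Jun and Egr1 stand above the trend, at 0.738, 0.341 and 0.431, while Jund, Fosl2 and Ier2 lie close to it.

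The members did not vary together as 1 block. Relative to the mean of the 6 libraries on the log2 scale, GR-cKO replicate 3 was high for Atf3 (2.15), Nr4a1 (0.98), Jun (0.93), Jund (0.64) and Fosl2 (0.52) but not for Fos (-0.29) or Fosb (-0.29). GR-cKO replicate 2 was high for Fos (1.20), Fosb (0.96) and Egr1 (0.69) and low for Atf3 (-1.16) and Jun (-0.53). Control replicate 1 resembled it in Fosb (1.32), Egr1 (0.69) and Fos (0.53). GR-cKO replicate 3 was the highest heart for 7 of the 10 genes, where it was so for 23.02% of all tested genes.

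The level of Fos was correlated with that of each other member over the 6 libraries, 9 relations in all, and none passed. The closest was with Egr1 (Pearson's r = 0.74, 2-sided exact permutation p = 0.0875, adjusted over the 9 relations 0.787; Spearman's rho = 0.71, exact permutation p = 0.136, adjusted 0.918). It was 0.52 without the 2 libraries farthest from the median of Fos, control replicate 3 and GR-cKO replicate 2. The other Pearson values ran from -0.28 for Jun to 0.39 for Fosb, with adjusted exact permutation p-values of 0.946 each. With 6 libraries only a very strong relation can pass.

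**Figure D4:**
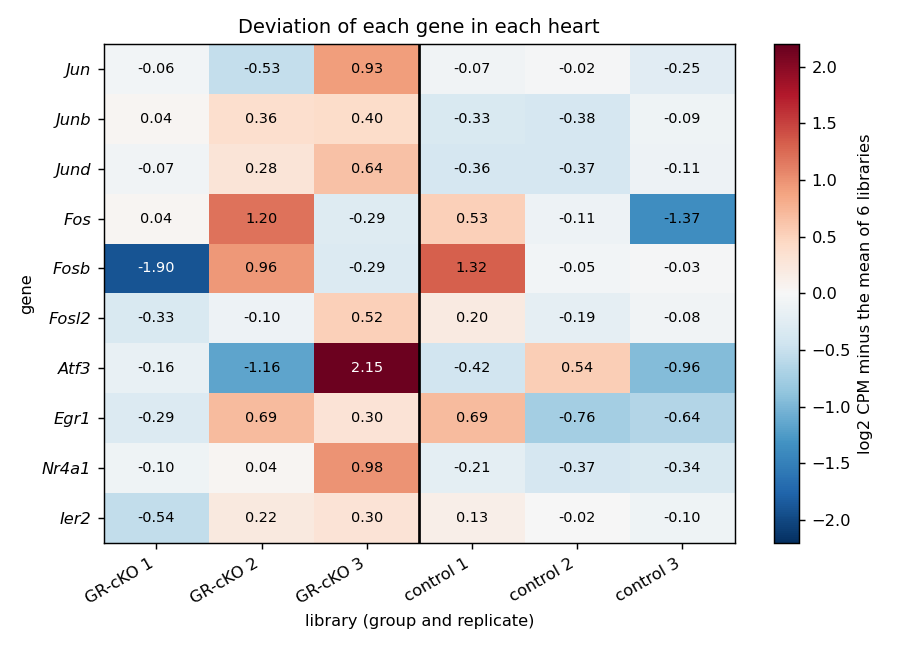
Deviation of each gene (rows) in each library (columns, GR-cKO left of the line and control right of it) from its mean over the 6 libraries, in log2 CPM, red for high and blue for low. Atf3, Jun and Nr4a1 are reddest in GR-cKO replicate 3 (2.15, 0.93 and 0.98), and Fos is reddest in GR-cKO replicate 2 (1.20).

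The genes whose pattern was most like that of Jund were, by Pearson's r over the 6 libraries among 8413 genes of at least 10 CPM on average, Sox12 (0.99), Slc35b1 (0.99), Arhgef15 (0.99), Ibtk (0.99) and Tnfrsf12a (0.98). Tnfrsf12a, the receptor of the cytokine TWEAK, had 10.8, 13.9 and 20.2 CPM in GR-cKO hearts, against 7.21, 8.58 and 9.28 CPM in control hearts. Sox12, a SoxC transcription factor, had 64.4, 74.8 and 91.9 CPM in GR-cKO hearts, against 57.3, 53.7 and 61.7 CPM in control hearts. Both were picked for their likeness to Jund, so their difference between the groups is a description as well. The genes nearest to the mean of the 9 tested members were Fam171a1, Asph, Rxra, Atg4b and Pa2g4, with r of 0.98 to 0.99. Over 6 libraries these values describe likeness only, and no test was made of them.

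Other immediate early genes, 42 listed and 38 tested, had 27 positive and 11 negative log2 fold changes and a median of 0.14. None passed in either direction. At an unadjusted edgeR p under 0.05 there was 1 higher, Ppp1r15a, and 1 lower, Dusp2, against 2.07% and 2.13% of all tested genes. All 3 GR-cKO libraries lay above all 3 control libraries for 2 of the 38 and below for 2, against 4.70% and 5.27% of all tested genes. Dusp2, a nuclear phosphatase of ERK best known from immune cells, had 3.13, 2.69 and 2.74 CPM in GR-cKO hearts, against 5.99, 4.98 and 7.18 CPM in control hearts, which is -1.08 on the log2 scale with an SE of 0.296 (edgeR adjusted p = 0.998). Its groups did not overlap. Ppp1r15a, the stress-induced subunit that restores translation by dephosphorylating eIF2 alpha, had 24.6, 24.4 and 31.1 CPM in GR-cKO hearts, against 19.1, 19.4 and 22.4 CPM in control hearts. Its groups did not overlap either (log2 fold change 0.40, SE 0.159, edgeR adjusted p = 0.998).

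In this list too GR-cKO replicate 3 stood out, with the highest value for 22 of the 38 tested genes, against 23.02% of all tested genes. Ccn2, a matricellular growth factor and YAP target named after its values were seen, had 92.5, 77.1 and 295.7 CPM in GR-cKO hearts, against 100.1, 88.4 and 97.02 CPM in control hearts. Ier5, an activator of heat shock factor named for the same reason, had 88.8, 82.7 and 208.6 CPM in GR-cKO hearts, against 93.3, 72.5 and 87.3 CPM in control hearts. Ier3, a survival gene of the stress response, had 58.1, 62.2 and 108.5 CPM in GR-cKO hearts, against 54.9, 49.4 and 61.6 CPM in control hearts. For Ccn2 and Ier5 the other GR-cKO hearts lay within or next to the range of the controls. Without GR-cKO replicate 3 the list had 18 positive and 20 negative fold changes and a median of -0.01.

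The close relatives of the members gave mixed values. Egr2 (0.427 ± 0.176 CPM in GR-cKO and 0.810 ± 0.0709 CPM in control hearts), Nr4a3 (1.33 ± 0.160 and 2.07 ± 0.622 CPM in GR-cKO and control hearts) and Nr4a2 (7.59 ± 2.43 and 8.63 ± 0.774 CPM in GR-cKO and control hearts) had negative log2 fold changes, of -0.91, -0.64 and -0.18 (SD, n = 3 each). Egr3 was at 3.07 ± 2.10 CPM in GR-cKO and 2.55 ± 0.772 CPM in control hearts. Egr4 had no read in any library. Dusp1, the phosphatase that glucocorticoids induce, had 48.1, 101.0 and 68.4 CPM in GR-cKO hearts, against 76.2, 70.9 and 50.9 CPM in control hearts, with GR-cKO replicates holding both the lowest and the highest value (log2 fold change 0.14, 95% interval -0.50 to 0.77). Ccn1, a target of serum response factor and YAP, had 25.02, 57.01 and 36.7 CPM in GR-cKO hearts and 44.4, 25.1 and 24.4 CPM in control hearts, and was highest in GR-cKO replicate 2 and control replicate 1, the hearts that led for Fos, Fosb and Egr1.

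Btg2, an antiproliferative gene, was at 32.3 ± 16.2 CPM in GR-cKO and 25.7 ± 6.33 CPM in control hearts. Zfp36, which destabilises early mRNAs, was at 7.22 ± 2.73 CPM in GR-cKO and 6.29 ± 0.937 CPM in control hearts. Klf4 was at 87.02 ± 6.69 CPM in GR-cKO and 76.1 ± 5.64 CPM in control hearts, Myc at 1.46 ± 0.582 CPM in GR-cKO and 1.33 ± 0.604 CPM in control hearts, and the clock gene Per1 at 34.6 ± 23.1 CPM in GR-cKO and 38.7 ± 15.2 CPM in control hearts (SD, n = 3 each). All had edgeR adjusted p-values of 0.998 to 0.999.

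Upstream kinases and transcription factors, all 33 of them tested, had 15 positive and 18 negative log2 fold changes and a median of -0.02. None passed, and none had an unadjusted p under 0.05. Without GR-cKO replicate 3 the list had 10 positive and 23 negative values and a median of -0.04. Srf, serum response factor itself, had 187.8, 347.1 and 271.1 CPM in GR-cKO hearts, against 239.4, 191.8 and 181.9 CPM in control hearts (log2 fold change 0.39, 95% interval -0.02 to 0.81). It was highest in GR-cKO replicate 2, and control replicate 1 led the controls. Mapk3, which encodes the kinase ERK1, was at 236.4 ± 52.99 CPM in GR-cKO and 199.2 ± 23.3 CPM in control hearts. Elk1, a cofactor of serum response factor, was at 29.3 ± 3.42 CPM in GR-cKO and 24.5 ± 2.66 CPM in control hearts (SD, n = 3 each).

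Basic leucine zipper partners and regulators of AP-1, 16 listed and 14 tested, had 9 positive and 5 negative log2 fold changes and a median of 0.08. None passed, and 1 was higher at an unadjusted edgeR p under 0.05, against 2.07% of all tested genes. That gene was Atf4, the main factor of the integrated stress response, at 102.8, 102.4 and 145.1 CPM in GR-cKO hearts, against 95.3, 98.4 and 92.8 CPM in control hearts. Its groups did not overlap, though GR-cKO replicates 1 and 2 were close to the controls. All 3 GR-cKO libraries lay above all 3 control libraries for 2 of the 14 tested genes, against 4.70% of all tested genes. Ddit3, a stress-induced partner that Atf4 activates, was at 45.98 ± 9.97 CPM in GR-cKO and 38.1 ± 7.21 CPM in control hearts. Maff, a small Maf protein without an activation domain, was at 5.68 ± 0.548 CPM in GR-cKO and 4.15 ± 0.770 CPM in control hearts (SD, n = 3 each). Without GR-cKO replicate 3 the list was split evenly, with 7 positive and 7 negative values.

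Genes known as AP-1 targets, 25 listed and 21 tested, had 7 positive and 14 negative log2 fold changes and a median of -0.09. None passed. At an unadjusted edgeR p under 0.05 Tgfb1 was higher and Mt1 and Mt2 were lower, against 2.07% higher and 2.13% lower of all tested genes. Tgfb1, the growth factor, was at 10.4 ± 2.36 CPM in GR-cKO and 7.18 ± 1.27 CPM in control hearts (SD, n = 3 each). The metallothioneins Mt1 and Mt2 are glucocorticoid-induced genes as well as AP-1 targets. Mt2 was at 18.9 ± 3.43 CPM in GR-cKO and 30.2 ± 2.97 CPM in control hearts, and Mt1 at 139.0 ± 15.9 CPM in GR-cKO and 187.0 ± 33.2 CPM in control hearts (SD, n = 3 each).

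Heat shock and handling genes, 11 listed and tested, had 3 positive and 8 negative log2 fold changes and a median of -0.07, and none had an unadjusted p under 0.05. Dnajb1, an HSP70 co-chaperone, was at 36.4 ± 2.05 CPM in GR-cKO and 43.3 ± 2.22 CPM in control hearts, Hspd1 at 122.0 ± 3.01 CPM in GR-cKO and 137.3 ± 5.39 CPM in control hearts, and Hspe1, the partner of Hspd1 in mitochondria, at 97.4 ± 8.91 CPM in GR-cKO and 110.2 ± 12.2 CPM in control hearts (SD, n = 3 each). Of the 11 genes, 4 were highest in GR-cKO replicate 3 and 4 in control replicate 2, against 23.02% and 17.88% of all tested genes.

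**Figure D5:**
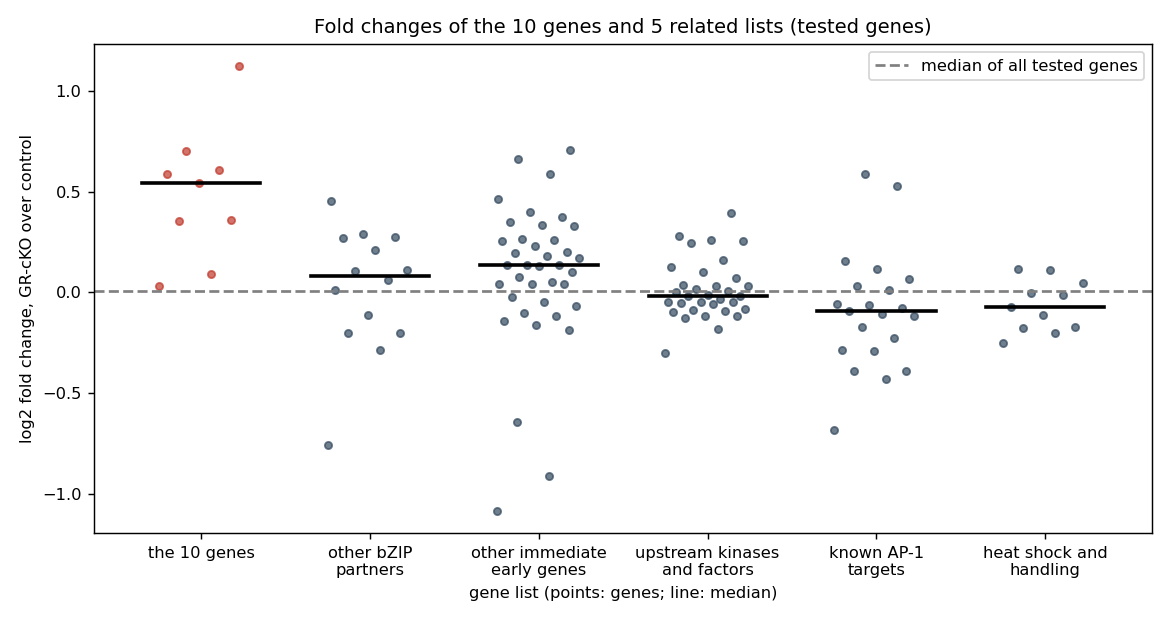
Log2 fold change (y axis, GR-cKO over control) of each tested gene among the 10 genes (red) and 5 related lists (dark blue), with the list median as a black line and the median of all tested genes as a dashed line. The 9 tested members lie above 0 with a median of 0.54, while the medians of the other lists lie between -0.09 and 0.14.

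Markers of heart cell types were read beside these values. Summed cardiomyocyte markers were at 37140 to 46610 CPM in GR-cKO and 37950 to 38940 CPM in control hearts, highest in GR-cKO replicate 3. Of the 6 genes, 4 were highest there, against 23.02% of all tested genes. Macrophage markers summed to 74.3 to 88.8 CPM in GR-cKO and 65.9 to 74.8 CPM in control hearts. Neutrophil markers summed to 19.4 to 26.4 CPM in GR-cKO and 12.9 to 14.3 CPM in control hearts. All 4 tested of the 8 neutrophil markers had positive log2 fold changes. The other 4 were too low for the fit. Of these, Elane had no read and Mpo had 1 read, in a GR-cKO library. Ly6g and Retnlg went the other way, with means of 0.0186 and 0.150 CPM in GR-cKO and 0.224 and 0.267 CPM in control hearts. Endothelial markers summed to 1615 to 1785 CPM in GR-cKO and 1474 to 1712 CPM in control hearts, fibroblast markers to 2129 to 2285 CPM in GR-cKO and 2146 to 2714 CPM in control hearts, and mural markers to 799.9 to 1065 CPM in GR-cKO and 884.3 to 945.6 CPM in control hearts. Erythroid markers summed to 6193 to 7129 CPM in GR-cKO and 5982 to 8394 CPM in control hearts, and brown fat markers to 129.5 to 173.9 CPM in GR-cKO and 117.4 to 279.8 CPM in control hearts. Most of the brown fat sum was Cidea, and the fat marker Ucp1, the uncoupling protein of brown fat, had 0, 18.8 and 3.93 CPM in GR-cKO hearts, against 6.78, 89.3 and 0.420 CPM in control hearts. Plin1, a lipid droplet protein, ran from 0.0558 to 3.87 CPM in GR-cKO and from 0.472 to 14.7 CPM in control hearts, and Adipoq from 0 to 4.43 CPM in GR-cKO and from 0 to 13.2 CPM in control hearts. These 3 markers were highest in control replicate 2 and next highest in GR-cKO replicate 2, so fat transcripts differed widely between hearts of 1 group. The part of cell composition, of fat transcripts, of the ribosomal transcript in GR-cKO replicate 3 and of tissue handling in the values of the 10 genes was not tested. In whole tissue, fewer cells of a type and less RNA per cell cannot be told apart.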

How the data were processed

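Messenger RNA of 6 whole mouse hearts was sequenced from its 3′ ends (QuantSeq 3′ FWD), in 3 GR-cKO and 3 control libraries. The deposited files hold raw read counts per gene, which the authors made with cutadapt 1.16, STAR 2.5.4a and featureCounts 1.6.2 on GRCm38, per the submitters' processing notes; those notes also name bcl2fastq, FastQC 0.11.7, MultiQC 1.5 and DESeq2 1.18.1. The strand setting and the treatment of multimapping reads are not stated in the sources used here. Of 52649 rows, the 92 ERCC and 7 SIRV controls entered neither library sizes nor tests, and 52403 of the 52550 mouse gene IDs matched a symbol.

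Counts were fitted with edgeR 4.0.16 in R 4.3.3 (filterByExpr by group, TMM, robust quasi-likelihood test, Benjamini-Hochberg adjustment over all 14860 genes, threshold 0.05). The SE is the log2 fold change divided by the square root of the F statistic. Log2 CPM used a prior count of 2. Alternatives were DESeq2 1.42.0, limma 3.58.1 (voom), other scalings, no filter, a replicate block and leaving out each library. Correlations were tested with exact permutation tests (scipy 1.17.1). The fit was tested on simulated data.

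The members and all gene lists were chosen with earlier results of these data known. Named genes are the members, 14 fixed genes, the 3 of smallest unadjusted p in each of the 5 lists, any that passed over all genes, and the 5 most like Jund and most like the mean of the members. Ccn2, Ier5 and the fat markers were named after their values were seen, and Prdx2, Junos and Gm11175 because they overlap members. Same-numbered replicates deviated together only weakly (correlations across genes of 0.06, 0.06 and 0.01), so they were not paired. Differently numbered replicates had correlations of -0.09 to 0.03. A replicate block was run as an alternative. The edgeR p-values set the difference between the groups against the spread between these libraries.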

Additional observations from a re-analysis of the deposited data

How the results depend on the processing

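With each library left out in turn, the log2 fold changes of Junb (0.48 to 0.65), Jund (0.39 to 0.75), Egr1 (0.10 to 0.99) and Nr4a1 (0.28 to 0.90) stayed positive, as they did under every alternative run. Those of Jun (-0.17 to 0.62), Fosl2 (-0.20 to 0.26), Atf3 (-0.46 to 1.67) and Ier2 (-0.11 to 0.25) turned negative without GR-cKO replicate 3, and that of Fos (-0.0027 to 1.13) without GR-cKO replicate 2. Ier2 was also negative with library totals alone (-0.011), with the replicate block (-0.0067), with limma voom (-0.0078), without GR-cKO replicate 2 (-0.07) and without control replicate 3 (-0.02). The cause was not tested. Atf3 was lower with limma voom (0.51) and the replicate block (0.57), and Fosl2 with library totals alone (0.04). The members with a positive value numbered 9 of 9 and ran from 5, without GR-cKO replicate 3, to 9. In 5 of the alternatives Fosb entered the fit as the 10th member, and its value was negative in each (-0.88 to -0.11). Over all genes, where 0 were called higher and 1 lower, the calls were 4 higher and 6 lower with no filter on low counts, 1 higher and 3 lower with the DESeq2 test, 2 lower with library totals alone, and 1 to 2 lower with a library left out (2 without GR-cKO replicate 2 or without GR-cKO replicate 3). With Jund set aside, no member was called under any alternative, with a smallest adjusted p of 0.350 to 1. Tests of Jund are left out, since it was chosen on this contrast. The replicate block called 0 higher and 1 lower, had 8 members positive and changed no call. At an unadjusted p under 0.05 the split was 308 higher and 316 lower, against 170 higher and 361 lower with library totals alone and 134 higher and 87 lower with spike-in scaling. Fos, Fosb and Atf3 had at most 208 reads in a library, which limits the precision of their values.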

Other observations

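All 45 pairs of the 10 genes were correlated over the 6 libraries after their values had been seen. Of the pairs without Jund, only Jun and Atf3 had an adjusted exact permutation p under 0.05, by Pearson's r and not by rho. That adjusted value leans on a tie with Junb and Jund, which had the same smallest p. No adjustment without the Jund pairs was made, so the value is a description and is not counted as passing. Jun and Atf3, a stress-induced pair that can form a dimer, had Pearson's r = 0.96 (2-sided exact permutation p = 0.00139, the smallest that 6 libraries can give, adjusted over the 45 pairs 0.0312; Spearman's rho = 1.0, exact permutation p = 0.00278, adjusted 0.0625). The value was 0.89 without the 2 libraries farthest from the median of Jun, GR-cKO replicates 3 and 2, and 0.84 without GR-cKO replicate 3 alone. Pairs with Jund are a description, since Jund was chosen for its levels in these libraries. Junb and Jund, both higher in every GR-cKO library than in any control library, had r = 0.95, 0.98 without the 2 libraries farthest from the median and 0.99 without GR-cKO replicate 3. Both pairs also varied together within the groups, at r = 0.96 for Jun and Atf3 and 0.89 for Junb and Jund after the group means were taken out. Jund and Nr4a1 had r = 0.91, which was 0.42 without the 2 libraries farthest from the median. The pairs were not picked in advance, and depth and library composition are shared by all genes of a library.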
